A study of Homo sapiens with 4 samples.

Results

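Cluster 7 is 1 of 8 groups into which the authors had divided single cells of the breast cancer line MDA MB 134VI (MM134). Its members were taken from the deposited annotation as every cell that carries cluster number 7, whichever treatment it had. They numbered 524 of 8307 cells: 351 of 4940 cells of the vehicle library and 173 of 3367 cells of the E2 library. MM134 is an established line of invasive lobular breast carcinoma, with the genotype given as WT, and it expresses the estrogen receptor. Both groups of cells were first hormone-deprived in medium with charcoal-stripped serum. One group then had 0.01% ethanol as vehicle and the other 100 nM estradiol (E2), each for 24 h. Each treatment had 1 targeted mRNA library (a commercial pan-cancer panel) and 1 Haircut library of DNA repair, so 4 samples in all and no replicates. By its title the series concerns MDC1, a break-site adaptor, and how lobular tumours repair DNA.

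Uracil in DNA is removed by base excision repair. A uracil glycosylase such as UNG cuts the base from the sugar, the abasic site that is left is cut by the endonuclease APEX1, and a polymerase and a ligase fill the gap. Haircut reads such steps in single cells: synthetic DNA hairpins with a defined lesion meet the enzymes of a cell, and a cut shifts the position at which the hairpin strand ends. Genes for DNA replication and for repair by homologous recombination are transcribed mainly around S phase, and genes for spindle assembly and chromosome separation mainly in G2 and mitosis.

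The cluster's UMIs, the counted molecules, were fewer per cell than elsewhere. The median cell of cluster 7 had 1911 panel UMIs in the vehicle library and 2000 in the E2 library, against 2473 and 2719 in the other cells. In the all-gene rows the medians were 919 and 1150 against 1229 and 1592, and in the repair rows 864 and 1138 against 935 and 1320. The median mitochondrial share was 7.67% and 7.99% in cluster 7 and 7.66% and 7.60% in the other cells. In the panel rows, the list of luminal and lobular genes had a sum near that of the other cells. It was 45889 and 44252 CPM (UMIs per 1000000 UMIs of the block) in cluster 7 and 47992 and 46030 CPM elsewhere. Single members differed. Of 12 measured, 5 were higher and 6 lower with intervals excluding no difference in both libraries, and 0 reached 1.5-fold in both. Over all 741 panel genes measured, 94 were higher and 204 lower by the same intervals. ESR1, given below, was lower in both libraries. Among all-gene rows, 18 of 19 immune or endothelial markers and 8 of 14 basal or myoepithelial markers, KRT5, KRT14 and TP63 among them, were at 0 in cluster 7 of both libraries. Over its other members that basal list summed to 196 against 150 CPM with vehicle and 131 against 119 CPM with E2, and in the panel rows to 1678 against 1554 CPM and 1355 against 1274 CPM. The immune or endothelial list summed to 2 all-gene UMIs in cluster 7 of each library, and in the panel rows to 36.0 and 48.9 CPM against 34.7 and 34.9 CPM elsewhere. Of 4 cell barcodes found in both libraries, 0 were in cluster 7. The sources used here do not give how the authors made the clusters or whether repair rows entered. Cluster 7 against other cells is therefore a description with no test, and all 95% intervals below cover counting error only, not variation between cells or cultures.

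By the labels of the annotation, cluster 7 joined cells of distant phases and held almost none in S. In the vehicle library 127 of its 351 cells were labelled G1, 221 G2M and 3 S. In the E2 library the numbers were 73 G1, 98 G2M and 2 S of 173. The cluster took 7.11% of vehicle cells (exact binomial interval 6.40 to 7.86%) and 5.14% of E2 cells (4.42 to 5.94%). Over 840 panel genes its profile was most like those of clusters 3 and 4, with Pearson correlations across genes of 0.976 and 0.975 on the log2(CPM + 10) scale. Genes are not independent replicates, so no p is attached. Cluster 4 was wholly labelled G2M, and cluster 3 mixed all 3 phases.

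The repair rows set cluster 7 apart by a low signal from uracil hairpins. The signal is the share of a hairpin's UMIs that end at positions 44 to 50, where the abasic and uracil hairpins of this assay have a peak. For Uracil1 that share was 20.6% in cluster 7 (20.1 to 21.1%) and 27.9% in the other cells of the vehicle library. In the E2 library it was 19.3% against 28.4%. Cluster 7 minus other cells was -7.29 percentage points (-7.83 to -6.76) and -9.05 points (-9.71 to -8.40), both beyond counting error. For Uracil2 the share was 10.4% against 15.7% with vehicle and 9.91% against 15.7% with E2. For Uracil3 it was 5.30% against 10.55% with vehicle and 5.44% against 11.7% with E2. The GU hairpin had 4.58% against 7.41% with vehicle and 4.57% against 8.67% with E2. So all 4 hairpins were lower in cluster 7, by a log2 ratio between -0.44 for Uracil1 and -0.99 for Uracil3 with vehicle, and between -0.55 and -1.11 for the same pair with E2.

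**Figure D1:**
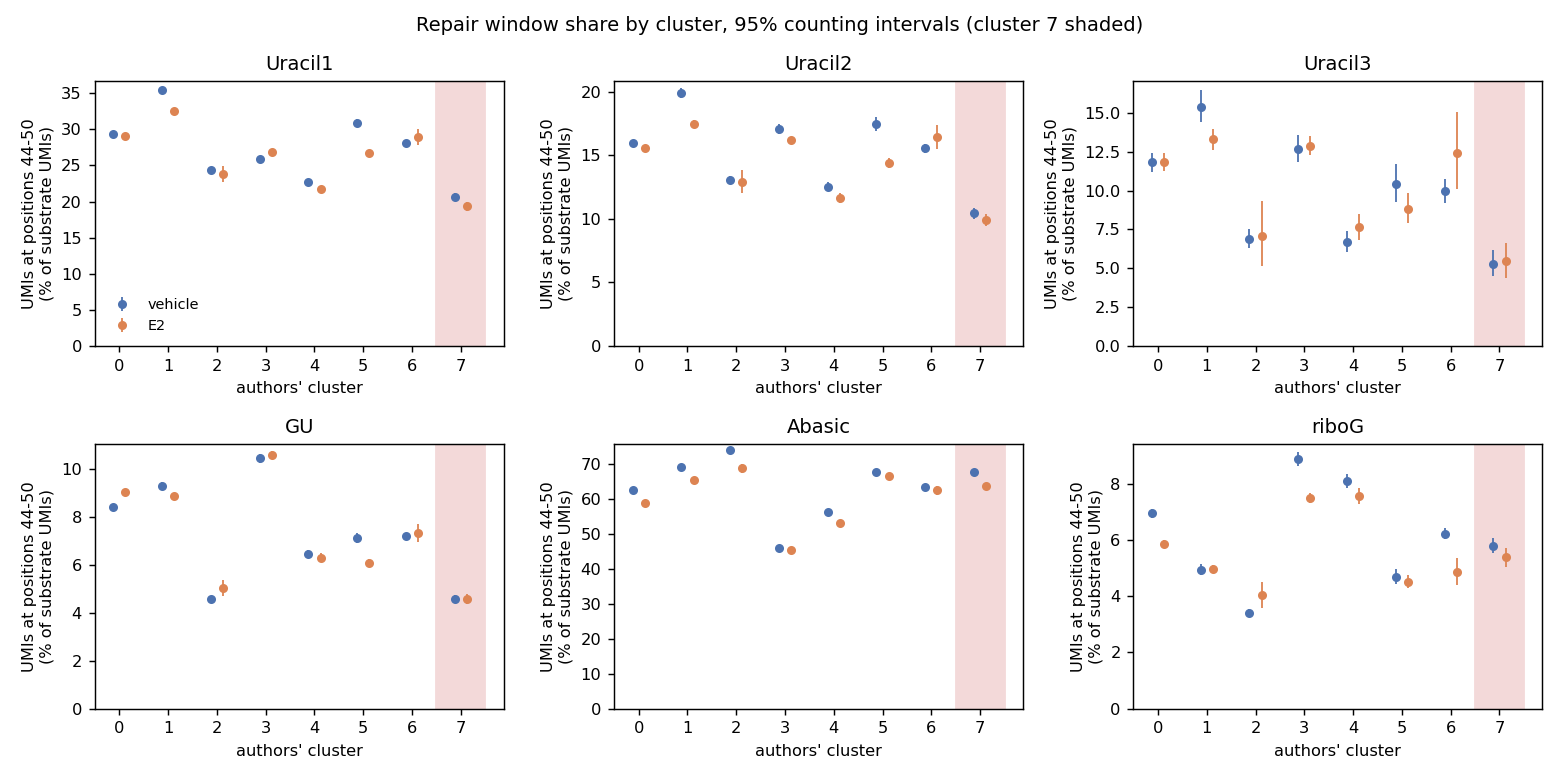
Share of each hairpin's UMIs at positions 44 to 50 (vertical axis, %) for the authors' 8 clusters (horizontal axis) in the vehicle and E2 libraries, with exact 95% binomial intervals of counting error. Cluster 7, shaded, has the lowest points for Uracil1, Uracil2, Uracil3 and GU, level with cluster 2 for GU with vehicle, and lies among the other clusters for Abasic and riboG.

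Cluster 7 had the lowest Uracil1, Uracil2, Uracil3 and GU share of the 8 clusters in both libraries. Its nearest neighbours for Uracil1 were cluster 4 at 22.7% with vehicle and cluster 4 at 21.7% with E2. Both lie above the interval of cluster 7. For GU with vehicle, cluster 2 also had 4.58%, and the pair could not be told apart. For Uracil3, the hairpin with fewest UMIs, the next lowest were cluster 4 at 6.72% with vehicle and cluster 2 at 7.05% with E2, and their intervals overlap that of cluster 7. The highest Uracil1 share was 35.4% with vehicle and 32.5% with E2, both in cluster 1, the cluster richest in S-labelled cells. Of the 2 clusters most alike in transcripts, cluster 3 had 15.7% over the 4 hairpins together in both libraries, and cluster 4 had 11.4% with vehicle and 11.0% with E2. Cluster 7 had 9.04% and 8.70%, and cluster 2, labelled mostly G1, came nearest at 10.0% and 10.3%.

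The Abasic and riboG hairpins did not share this order. The Abasic hairpin, which needs no glycosylase, had 67.8% of its UMIs in the window in cluster 7 and 63.5% in the other cells with vehicle. With E2 it had 63.7% against 57.6%, so the share was higher in cluster 7 in both libraries. From the lowest of the 8 clusters it ranked 6 with vehicle and 5 with E2. The riboG hairpin had 5.79% against 6.15% with vehicle and 5.38% against 6.03% with E2, small differences over all cells, and within G2M cells it was 6.12% against 7.68% and 5.52% against 6.53%. The Normal, CI and TI hairpins had at most 0.216% of their UMIs in the window in cluster 7. TI was nonetheless the lowest of the 8 clusters in both libraries, at 0.216% with vehicle and 0.185% with E2, beside 0.233% and 0.190% in the next. Its log2 ratio to the other cells was -0.24 (-0.48 to -0.004) with vehicle and -0.20 (-0.53 to 0.11) with E2. For Normal and CI the intervals included 0 in both libraries.

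The uracil difference held within the labelled phases. Among G1 cells Uracil1 had 21.4% in cluster 7 against 27.0% elsewhere with vehicle, and 19.4% against 27.1% with E2. Among G2M cells it had 20.2% against 26.2% with vehicle and 19.5% against 25.9% with E2. The 4 hairpins together gave the same direction, from 3.13 percentage points lower in G1 cells with vehicle to 4.98 lower in G2M cells with E2. The Abasic share did not behave so evenly. It was higher by 9.04 points with vehicle and 12.7 points with E2 in G2M cells, by 3.28 points in G1 cells with vehicle, and differed by -0.78 points (-2.13 to 0.58) in G1 cells with E2.

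Cells of cluster 7 had fewer repair UMIs, so shares and depth are given side by side. The 4 hairpins made up 36.2% of repair UMIs in cluster 7 and 36.2% in the other cells with vehicle, and 36.6% against 36.1% with E2. Per cell, UMIs in their window were 29.1 against 47.5 with vehicle and 35.9 against 70.9 with E2. With vehicle, cluster 2 had 28.0 per cell, below cluster 7. Every cell was also thinned to 300 repair UMIs, which left out 8 vehicle and 4 E2 cells of cluster 7 and 73 and 19 other cells. The median share per cell was then 7.34% in cluster 7 (quartiles 5.24 and 10.7%) against 12% elsewhere with vehicle. It was 6.86% (4.76 and 9.92%) against 13.1% with E2. Without thinning the medians were 7.19% against 11.9% and 7.26% against 13.4%. With vehicle 82.2% of cluster 7 cells, and with E2 88.2%, were below the median of the other cells, so the distributions overlap but are displaced.

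**Figure D2:**
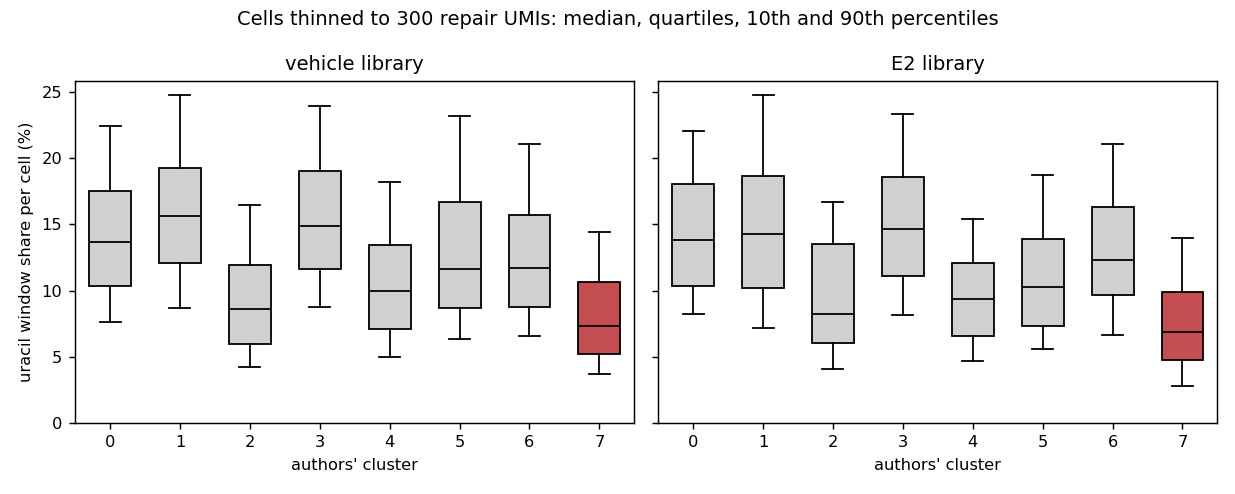
Window share of Uracil1, Uracil2, Uracil3 and GU together in single cells thinned to 300 repair UMIs (vertical axis, %), by cluster (horizontal axis) in each library, with the median, quartiles and 10th and 90th percentiles. Cluster 7, in red, has the lowest median in both libraries, 7.34% and 6.86%, and its box overlaps those of clusters 2, 4, 5 and 6 in both libraries and of cluster 0 with vehicle.

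Position by position, as shares of all repair UMIs, most lower ends of the uracil hairpins were in or next to the window. Of 228 positions with at least 100 UMIs observed or expected in cluster 7 of each library, 18 were lower by at least 1.5-fold with intervals excluding 1 in both libraries (7.89% of positions) and 2 were higher (0.877%). Those in or next to the window were GU 45 to 49, 52 and 53, Uracil1 46, 47, 49 and 50, Uracil2 50 and Uracil3 45. The rest were Uracil1 19, Uracil2 21 and 23, Abasic 3 and TI 7. The 2 higher positions were Uracil1 34 and Uracil2 33. The peak at Uracil1 position 45 held 14.3% of that hairpin's UMIs in cluster 7 and 18.6% elsewhere with vehicle, and 14.3% against 18.1% with E2. Position 10, the most frequent Uracil1 end in cluster 7, held 16.7% against 14.7% with vehicle and 17.2% against 15.0% with E2. Position 45 was the most frequent Uracil1 end in the other cells.

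**Figure D3:**
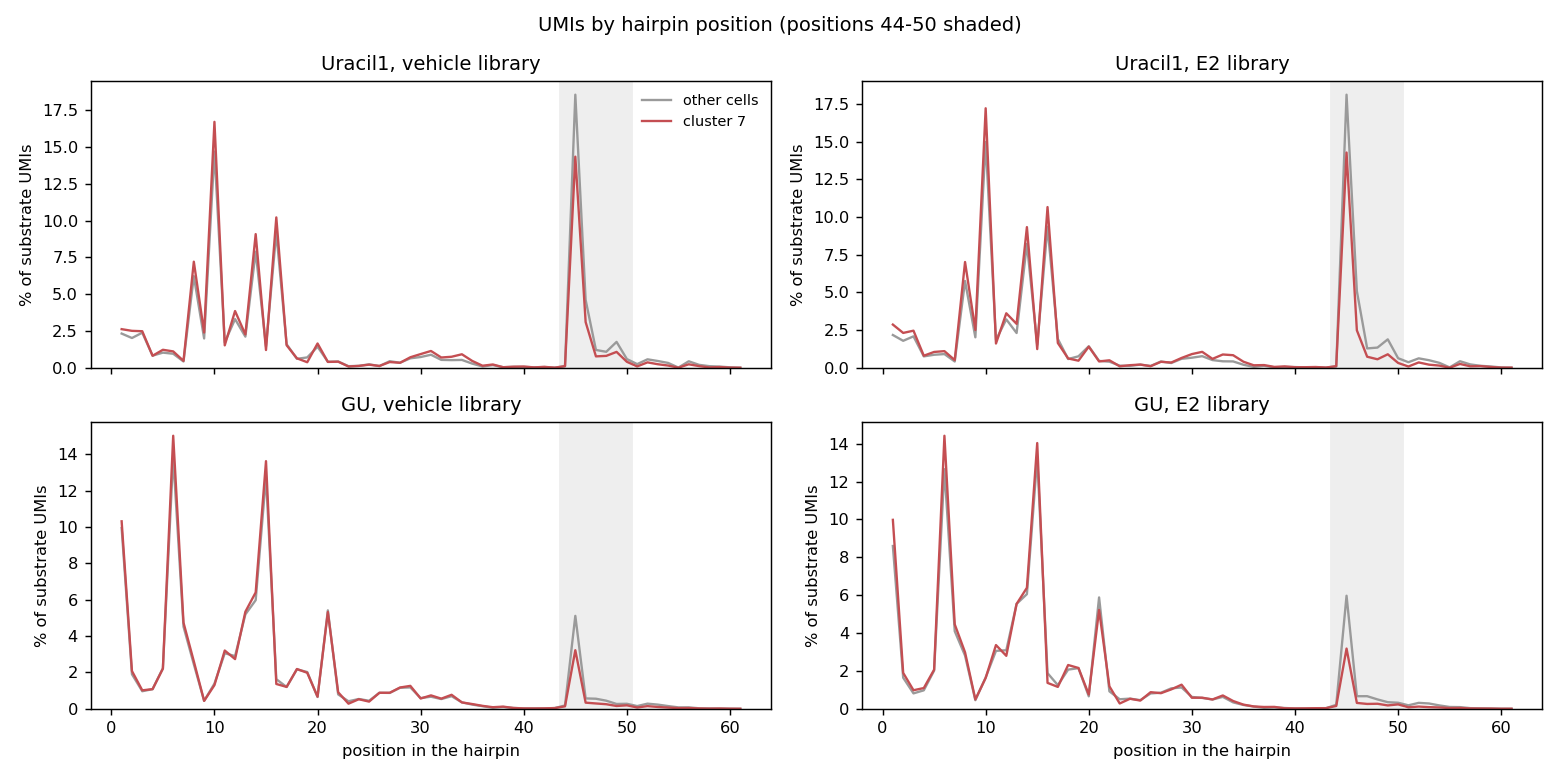
Share of the UMIs of the Uracil1 and GU hairpins (vertical axis, %) ending at each of 61 positions (horizontal axis), for cluster 7 in red and the other cells in grey, in each library, with positions 44 to 50 shaded. The curves run close together outside the shaded window, and inside it cluster 7 peaks lower, at 14.3% against 18.6% for Uracil1 position 45 with vehicle.

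Most genes for handling uracil and dUTP had too few all-gene UMIs to compare. Of 13 on that list 3 were measured and 2 were called lower, beside 2.91% of all genes tested. The wider list of uracil and base excision repair summed to 2801 against 2481 CPM elsewhere with vehicle and 2774 against 2826 CPM with E2. UNG, the main nuclear uracil glycosylase, had 5 UMIs with vehicle and 3 with E2 in the all-gene rows, or 13.6 against 28.1 CPM elsewhere and 14.6 against 41.3 CPM. Its log2 ratios of -1.05 (-2.69 to 0.20) and -1.50 (-3.79 to 0.06) include 0, so a difference was not detectable at this depth. SMUG1, a second uracil glycosylase, had 5 and 8 UMIs. TDG, which removes uracil and thymine opposite guanine, had 117 against 107 CPM with vehicle and 127 against 112 CPM with E2. APEX1 had 114 against 175 CPM and 161 against 184 CPM. DUT, the dUTPase that keeps uracil out of new DNA, was called lower, at 89.8 against 228 CPM with vehicle and 107 against 305 CPM with E2. Its log2 ratios were -1.35 (-1.89 to -0.85) and -1.51 (-2.19 to -0.91). The uracil and dUTP list, within G1 cells, summed to 464 against 494 CPM with vehicle and 585 against 613 CPM with E2. Within G2M cells it summed to 438 against 823 CPM and 502 against 886 CPM. The low level was not particular to cluster 7. Its list sum with vehicle was 449 CPM, beside 442, 396 and 444 CPM in clusters 2, 5 and 6. With E2 it was 531 CPM, beside 273, 444 and 496 CPM.

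Promoters are shown for a pair of genes at the high end and a pair at the low end of cluster 7, as examples of the promoters in which the motifs below were counted. The windows run from 250 bases before to 50 after the start site in RefSeq on GRCh38.p14. PTTG1 lies at chr5:160421605-160421904, plus strand, and CCNB2 at chr15:59104896-59105195, plus strand. CDC6 lies at chr17:40287629-40287928, plus strand, and E2F1 at chr20:33686336-33686635, minus strand. In PTTG1 the capitals mark CCAAT or its complement, in CCNB2 they mark CCAAT and the motif TTTGAA known as CHR, and in CDC6 and E2F1 they mark an E2F match.
PTTG1: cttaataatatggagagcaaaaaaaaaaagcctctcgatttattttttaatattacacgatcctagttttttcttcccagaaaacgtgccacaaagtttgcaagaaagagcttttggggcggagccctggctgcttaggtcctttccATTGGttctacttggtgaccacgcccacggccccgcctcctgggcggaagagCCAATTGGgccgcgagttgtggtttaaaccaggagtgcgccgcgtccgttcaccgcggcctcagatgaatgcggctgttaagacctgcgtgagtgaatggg
CCNB2: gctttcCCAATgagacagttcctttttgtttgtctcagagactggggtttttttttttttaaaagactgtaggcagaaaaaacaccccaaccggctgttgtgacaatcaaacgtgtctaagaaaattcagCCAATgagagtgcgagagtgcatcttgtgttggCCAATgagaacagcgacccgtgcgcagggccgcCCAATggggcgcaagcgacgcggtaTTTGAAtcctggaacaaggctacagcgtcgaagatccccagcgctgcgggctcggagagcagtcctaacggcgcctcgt
CDC6: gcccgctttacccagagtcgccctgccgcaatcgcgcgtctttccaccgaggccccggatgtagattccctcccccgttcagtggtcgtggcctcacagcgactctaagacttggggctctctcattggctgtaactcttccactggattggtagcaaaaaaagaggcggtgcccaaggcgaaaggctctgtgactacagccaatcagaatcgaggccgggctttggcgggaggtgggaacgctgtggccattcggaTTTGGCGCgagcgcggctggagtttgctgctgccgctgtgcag
E2F1: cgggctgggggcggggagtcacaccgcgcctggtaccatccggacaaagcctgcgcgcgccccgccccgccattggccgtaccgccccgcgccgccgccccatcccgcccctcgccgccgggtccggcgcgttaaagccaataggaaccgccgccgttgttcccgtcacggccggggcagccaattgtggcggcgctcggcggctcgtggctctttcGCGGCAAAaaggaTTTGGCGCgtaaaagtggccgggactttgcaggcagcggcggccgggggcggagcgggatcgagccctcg

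The E2F matches searched were TTTCCCGC, TTTGGCGC, TTTCGCGC and TTTGCCGC, and all motifs were searched on both strands. PTTG1 held 3 CCAAT matches, with 1 pair of them overlapping, and CCNB2 held 4 of them and 1 CHR match. CDC6 held 1 E2F match and E2F1 held 2. Both CDC6 and E2F1 also held CCAAT, which is not marked in them, so CCAAT does not separate the pairs. Among all 35116 promoters of that length, 34.6% held CCAAT, 15.2% CHR and 3.31% an E2F match. Of the 23 genes named as highest in cluster 7, 17 were matched by symbol and 12 of these held CCAAT, 3 CHR and 2 an E2F match. Of the 22 named as lowest, 15 were matched and 8 held CCAAT, 1 CHR and 5 an E2F match. A match is only a run of letters, and a window without one says nothing about a factor.

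Genes of mitosis were among those highest in cluster 7 in the all-gene rows. Among 2060 genes with at least 20 UMIs observed or expected in cluster 7 of each library, 65 were at least 1.5-fold higher with intervals excluding 1 in both libraries (3.16%) and 60 were lower (2.91%). Scaled by median of ratios, 50 were higher and 73 lower. PTTG1, or securin, which holds back separase until anaphase, had 218 UMIs and 593 CPM (517 to 678) in cluster 7 with vehicle and 122 UMIs and 594 CPM (493 to 709) with E2. The other cells had 134 and 116 CPM, so its log2 ratios were 2.14 (1.92 to 2.36) and 2.36 (2.07 to 2.64). No other cluster reached this level: cluster 4 came next, at 451 CPM with vehicle and 348 CPM with E2. PTTG1 lies on chromosome 5 from 160421855 to 160428744 in RefSeq GRCh38.p14. UBE2S, which extends ubiquitin chains for the anaphase-promoting complex, had log2 ratios of 1.45 and 1.69. ARL6IP1, a protein of the endoplasmic reticulum membrane, had 1.65 and 1.99, and the cyclin CCNB2 had 1.57 and 1.41. CDKN3, a phosphatase of cyclin-dependent kinases, had 1.12 and 1.57.

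Of 39 genes on the G2/M list, 27 were measured in the all-gene rows. Of these, 9 were higher and 1 lower in cluster 7, beside 3.16% and 2.91% of all genes tested. The median ratio of the list was 0.27, against 0.05 for all genes tested. In the panel rows 8 were measured, with 1 higher, 1 lower and a median of -0.29, against -0.10 for all panel genes tested, of which 1.21% were higher and 9.45% lower. The 9 all-gene calls were CCNB1, CCNB2, DLGAP5, CENPE, CENPF, BUB1, BIRC5, CDC20 and ECT2. CENPF, a kinetochore protein, had 2559 against 1281 CPM with vehicle and 1962 against 1112 CPM with E2. The 1 lower gene was CDK1, the kinase that drives entry into mitosis, at 98.0 against 238 CPM and 43.8 against 221 CPM. In the panel rows AURKB, the kinase of the chromosomal passenger complex, was lower too, with log2 ratios of -1.01 and -1.48. The list was thus split, with cyclin B genes high and CDK1 and AURKB low. Its all-gene sum was 14310 CPM in cluster 7 with vehicle and 11156 CPM with E2. Cluster 4 had 31562 and 28458 CPM and cluster 0 had 15977 and 14083 CPM, so a high sum was not particular to cluster 7.

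The phase labels divide this result. In the all-gene rows, within cells labelled G1, the G2/M list summed to 4932 CPM in cluster 7 against 1642 CPM elsewhere with vehicle. With E2 it summed to 3911 against 2084 CPM. Within cells labelled G2M it summed to 19239 against 21607 CPM and 16800 against 17687 CPM. The list median in these rows was 1.23 and 0.47 in G1 cells and -0.17 and 0.03 in G2M cells, vehicle first. In the panel rows, over 8 measured genes, it was 0.76 and 0.30 in G1 cells but -0.85 and -0.73 in G2M cells. PTTG1 stayed higher in both, with log2 ratios of 3.68 and 3.12 in G1 cells and 1.17 and 1.55 in G2M cells. CCNB1 in the panel rows had 1.74 and 1.71 in G1 cells, and 0.19 and 0.62 in G2M cells. Cluster 7 cells labelled G1 thus carried more transcripts of G2/M genes than other G1 cells. No doublet caller was run, and the part of doublets or of the phase labels in this was not tested; cluster 7 had fewer UMIs per cell than the other cells.

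CCNB1 was also measured in the panel, which has more UMIs. It had 3719 UMIs and 4778 CPM (4626 to 4934) with vehicle and 1649 UMIs and 4479 CPM (4266 to 4701) with E2, against 2566 and 2083 CPM in the other cells. Cluster 4, wholly G2M by label, had 10705 and 10197 CPM, so cluster 7 came second of the 8 clusters for CCNB1 while it came first for PTTG1. Of 741 panel genes measured, 9 were higher (1.21%) and 70 lower (9.45%), and CCNB1 was 1 of the 9. With a median-of-ratios size factor 14 were higher, against clusters 3 and 4 alone 4 were, and within G1 cells 30 were lower. The others were HIST1H2BD, DDIT4, B2M, GATA2, TGFBR1, CDKN2D, PDGFB and USP9X.

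HIST1H2BD, a histone H2B gene, had 1743 CPM with vehicle and 1374 CPM with E2 in cluster 7, against 716 and 609 CPM elsewhere. Its log2 ratios were 1.28 (1.20 to 1.37) and 1.17 (1.04 to 1.31), and cluster 7 was the highest of 8 clusters in both libraries. B2M, the light chain of class I histocompatibility molecules, had 0.83 and 0.65. Of the 5 interferon-response genes measured in the panel, B2M was the 1 that was called, beside 1.21% of all panel genes called higher. GATA2, a zinc-finger transcription factor, had 0.77 and 0.63, and PDGFB, a platelet-derived growth factor chain, had 0.67 and 1.35. DDIT4, an inhibitor of mTORC1 signalling, had 1.04 and 0.85 over all cells, but -0.96 with vehicle and 0.07 with E2 in G1 cells. LGALS1, a galactose-binding lectin read in the all-gene rows, had 1.52 and 1.39.

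**Figure D4:**
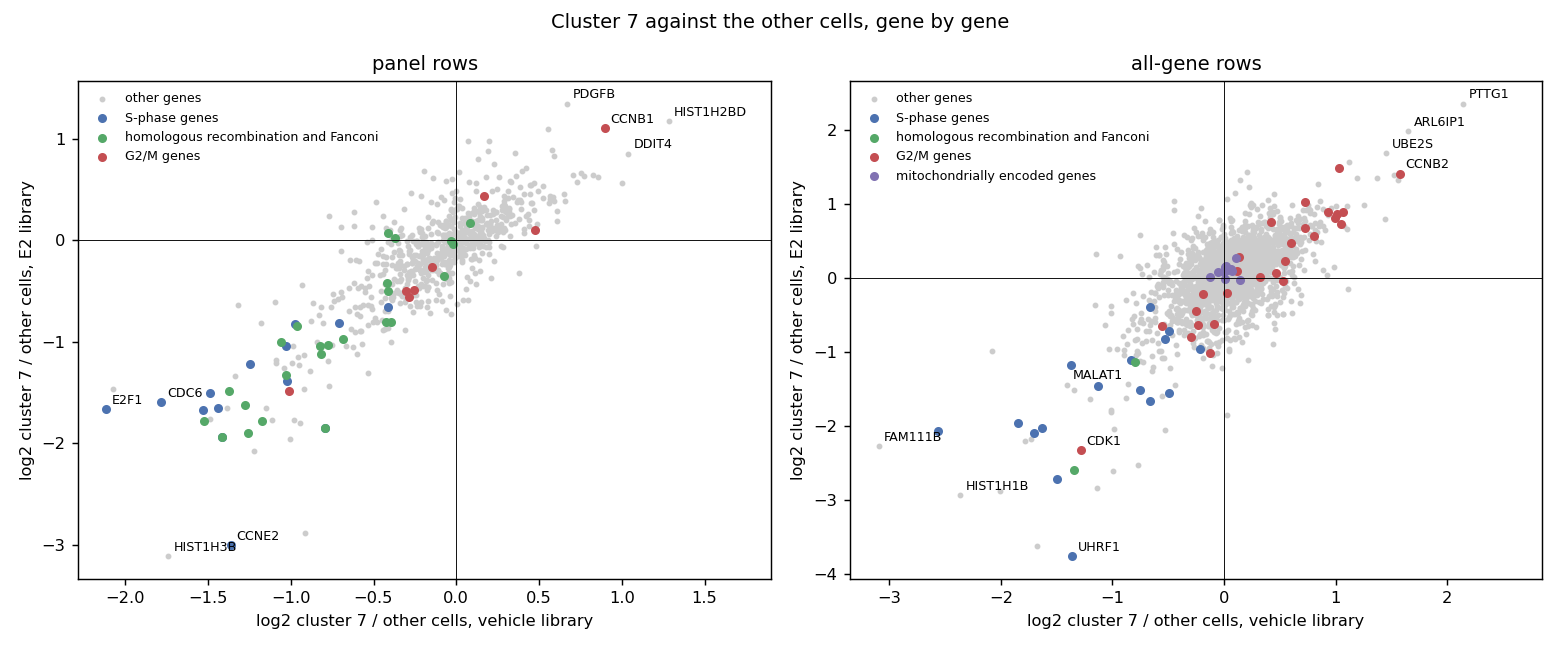
Log2 ratio of cluster 7 to the other cells in the vehicle library (horizontal axis) and the E2 library (vertical axis) for each measured gene of the panel rows and the all-gene rows, with 4 gene lists coloured. S-phase and homologous recombination genes lie to the lower left, G2/M genes spread widely, with CDK1 at -1.28 and CCNB2 at 1.57 with vehicle, and mitochondrially encoded genes sit near 0.

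Replication genes were low in cluster 7. Of 14 S-phase genes measured in the panel, 13 were lower in cluster 7 and 0 higher, beside 9.45% and 1.21% of all panel genes. The list median was -1.41, against -0.10 for all panel genes tested. In the all-gene rows 11 of 16 were lower, beside 2.91% of all genes tested, with a median of -1.22. E2F1, a transcription factor that drives S-phase genes, had 88 UMIs in cluster 7 of each library, or 113 against 489 CPM with vehicle and 239 against 758 CPM with E2. CDC6, which loads the replicative helicase, had 203 CPM (173 to 237) against 698 CPM with vehicle and 375 CPM (315 to 443) against 1134 CPM with E2. MCM5, a helicase subunit, had 209 against 604 CPM and 258 against 821 CPM. FEN1, the flap endonuclease of replication and long-patch base excision repair, had 400 against 1121 CPM and 527 against 1499 CPM.

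Cluster 7 had almost no S-labelled cells and the other cells had many, so the same list is given within phases. Its panel median was -0.63 with vehicle and -0.76 with E2 in G1 cells, and -0.90 and -1.14 in G2M cells. CDC6 itself had -0.76 and -0.97 in G1 cells and -1.54 and -1.04 in G2M cells. The lower level is therefore seen within each label, and it is smaller there than over all cells. For CDC6 with vehicle, cluster 7 at 203 CPM was lowest, and clusters 2, 4, 5 and 6 lay between 283 and 383 CPM. With E2, cluster 4 at 353 CPM was below cluster 7 at 375 CPM and cluster 2 was at 383 CPM, within the interval of cluster 7.

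Genes of repair by homology followed. Of 24 homologous recombination and Fanconi genes in the panel, 14 were lower and 0 higher, beside 9.45% and 1.21% of all panel genes. The list median was -0.90, against -0.10 for all panel genes tested. The summed level of the list in cluster 7, 8080 CPM with vehicle and 8040 CPM with E2, was not the lowest. Clusters 5 and 6 had 7473 and 7924 CPM with vehicle, and cluster 6 had 8012 CPM with E2. BRCA1, which acts at breaks and stalled forks, had 174 UMIs and 224 CPM (192 to 259) in cluster 7 against 642 CPM with vehicle. With E2 it had 90 UMIs and 244 CPM (197 to 300) against 842 CPM. BRCA2, a mediator of strand exchange in this pathway, had log2 ratios of -1.37 and -1.49. The helicase BLM had -1.42 and -1.94. RAD50, MRE11 and NBN, the complex that senses broken ends, were not called: RAD50 had -0.02 and -0.03. BLM stands on the S-phase list as well. Within phases the list median was -0.21 and -0.46 in G1 cells and -0.86 and -0.89 in G2M cells. The -0.10 for all panel genes is over all phases, so it is no reference for these medians.

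The panel also measured other repair genes. MDC1 had 946 against 864 CPM with vehicle and 918 against 835 CPM with E2, log2 ratios of 0.13 and 0.14. PARP1 had -0.20 and -0.37, and PARP2, a second sensor of strand breaks, was called lower, at 260 against 464 CPM and 282.5 against 567 CPM. Of 6 base excision repair genes 2 were lower, FEN1 and PARP2, and of 9 damage signalling genes 3 were, CDC25A, CHEK1 and WEE1. Of 14 mismatch and nucleotide excision repair genes 1 was lower, PMS1 at -0.60 and -0.72, a share near the 9.45% of all panel genes. Among end joining genes, 1 of 4 was lower in the panel, POLQ, the polymerase of microhomology-mediated joining, at -1.11 and -1.78. CHEK1, a checkpoint kinase, had -0.77 and -1.19, and WEE1, which restrains CDK1, had -0.61 and -0.66.

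MALAT1, a long RNA held in nuclear speckles, had the lowest level of any cluster here. In cluster 7 it had 7533 UMIs and 20506 CPM (20045 to 20974) with vehicle, against 54381 CPM in the other cells. With E2 it had 3138 UMIs and 15274 CPM (14744 to 15817), against 41471 CPM. The log2 ratios were -1.41 (-1.44 to -1.37) and -1.44 (-1.49 to -1.39). The other 7 clusters lay between 41798 and 63909 CPM with vehicle and between 35572 and 56136 CPM with E2, so their range does not reach down to cluster 7. Within phases its ratios were -1.78 and -1.49 in G1 cells and -1.16 and -1.41 in G2M cells. NEAT1, another nuclear RNA, had -0.68 and -0.55 and was not called, and KCNQ1OT1, also nuclear, had 0.81 and 0.23. MALAT1 lies on chromosome 11 from 65497738 to 65506516.

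Mitochondrial and ribosomal protein transcripts are given for reference. Of 13 mitochondrially encoded genes 0 were called, with a median of 0.07, and of 44 ribosomal protein genes 0 were called, with a median of -0.04. With 3.16% of all genes called higher and 2.91% lower, counts of 0 in lists of this size are near the background. Among immediate-early genes, which respond within minutes to signals or handling, 3 of 7 measured in the panel were lower, beside 9.45% of all panel genes. With vehicle and E2 the list summed to 2990 and 2314 CPM in cluster 7, and to 3141 and 2482 CPM in cluster 4. Its median was -0.73 and -0.49 in G1 cells and -0.0005 and -0.52 in G2M cells. JUN, a subunit of AP-1, had 725 against 1827 CPM with vehicle and 462 against 1164 CPM with E2. FOS, its partner, had 532 against 1134 CPM and 234 against 541 CPM, and NR4A1, a nuclear receptor, had log2 ratios of -0.83 and -0.74. ESR1, the estrogen receptor gene, had 2219 against 3406 CPM with vehicle and 2510 against 3352 CPM with E2, and it was not called.

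**Figure D5:**
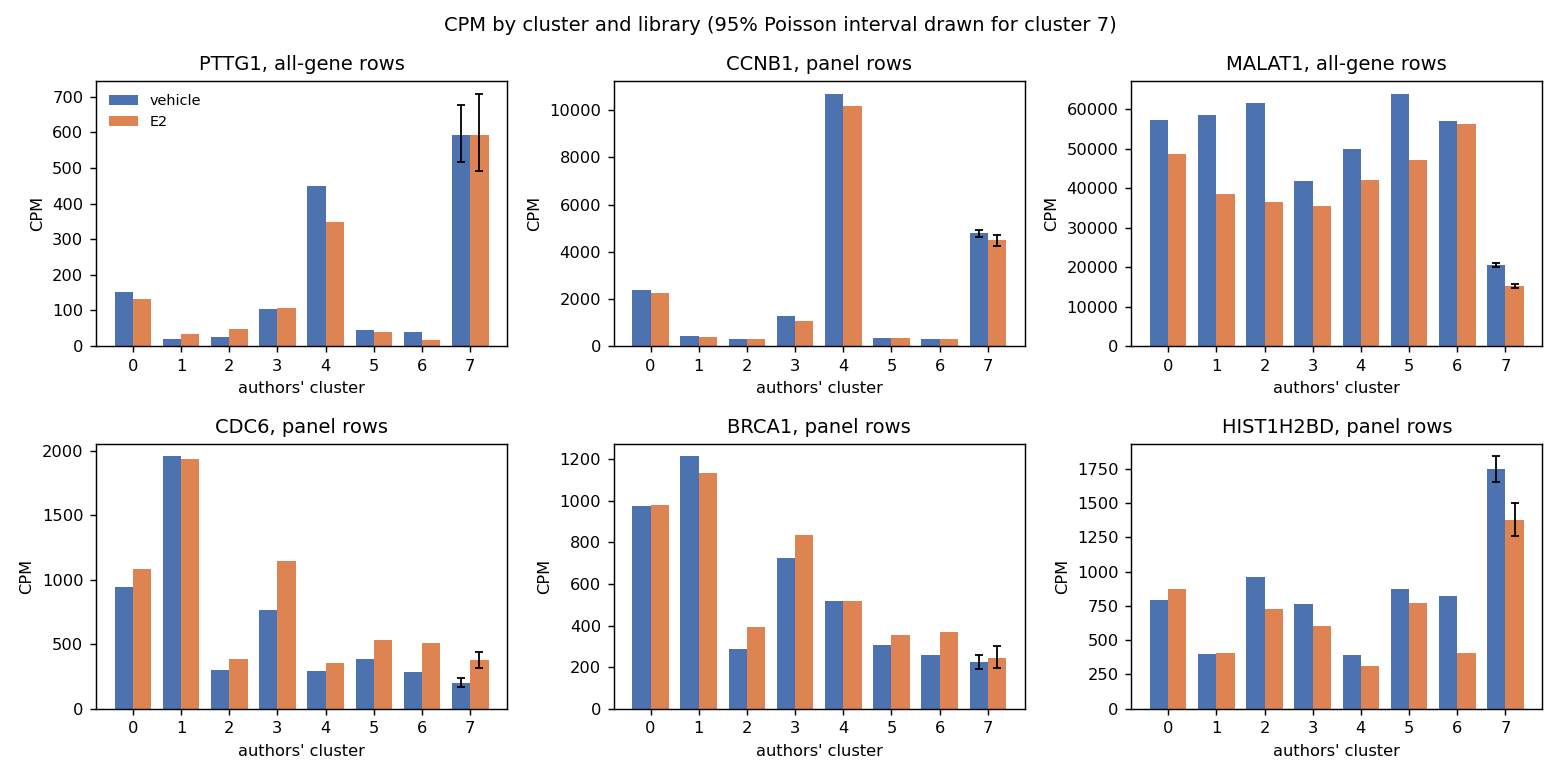
CPM (vertical axes, linear from 0) of 6 genes in the authors' 8 clusters (horizontal axes), with bars for the vehicle and E2 libraries and exact 95% Poisson intervals on cluster 7. PTTG1 and HIST1H2BD are highest and MALAT1 is lowest in cluster 7, CCNB1 is second to cluster 4, and CDC6 and BRCA1 are at the low end.

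Inside cluster 7, E2 was set against vehicle with 173 and 351 cells. Of 743 panel genes with at least 50 UMIs over both libraries, 31 were at least 1.5-fold higher with an interval excluding 1 (4.17%) and 84 lower (11.3%). The median panel ratio was -0.12, and a median-of-ratios size factor gives 57 higher and 54 lower. CCND1, the cyclin of G1, alone took 119443 CPM with vehicle and 177996 CPM with E2 in cluster 7. In the all-gene rows 85 of 2089 were higher (4.07%) and 106 lower (5.07%).

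Known estrogen targets differed between treatments inside the cluster. The panel measured 5 estrogen-induced genes and 4 were higher, WNT4, EGR3, RET and MYB, beside 4.17% of all panel genes. The list median was 1.35 in cluster 7 and 0.81 in the other cells. WNT4, a secreted Wnt ligand, had 59 UMIs and 75.8 CPM with vehicle and 119 UMIs and 323 CPM with E2. Its log2 ratio was 2.09 (1.63 to 2.57), against 1.19 in the other cells. RET, a receptor tyrosine kinase, had 320 and 818 CPM, a log2 ratio of 1.35 (1.11 to 1.60) against 0.81. JAK2, a kinase of cytokine receptors, is not on the estrogen-induced list. It had 188 and 608 CPM, a log2 ratio of 1.70 (1.39 to 2.01) against 0.84. For WNT4, RET and JAK2 the difference between cluster 7 and the other cells was 0.90 (0.44 to 1.36), 0.54 (0.29 to 0.79) and 0.86 (0.55 to 1.17). Genes were named partly for a high E2 ratio inside cluster 7, which favours differences above 0, so these are no test. Of 10 estrogen-induced genes in the all-gene rows, 8 were higher, beside 4.07% of all genes tested. GREB1, a cofactor of the receptor, had 46.3 and 204 CPM, a log2 ratio of 2.14 against 1.296. PGR, the progesterone receptor, had 4 and 13 panel UMIs in the cluster, too few to measure.

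All 8 estrogen-repressed genes measured in the panel were lower with E2, beside 11.3% of all panel genes. The list median was -1.12 in cluster 7 and -1.10 in the other cells. TXNIP, an inhibitor of thioredoxin, had 2392 CPM with vehicle and 589 CPM with E2, a log2 ratio of -2.02 (-2.23 to -1.82) against -2.09. IL1R1, the interleukin-1 receptor, had 586 and 185 CPM, a log2 ratio of -1.67 (-2.05 to -1.295) against -1.37. BTG2, an antiproliferative factor, had 563 and 155 CPM, a log2 ratio of -1.86 (-2.29 to -1.46) against -1.42. For TXNIP the difference between cluster 7 and the other cells was 0.06 (-0.14 to 0.27), and for IL1R1 it was -0.30 (-0.67 to 0.08), so neither excludes 0. For BTG2 it was -0.44 (-0.85 to -0.04). Naming genes partly for a low E2 ratio inside cluster 7 favours differences below 0.

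A replication-dependent histone gene took opposite directions in cluster 7 and elsewhere. HIST1H3B, which encodes histone H3, had 347 CPM with vehicle and 163 CPM with E2 in cluster 7 but 1159 and 1411 CPM in the other cells. The log2 ratios were -1.09 (-1.52 to -0.68) and 0.28 (0.25 to 0.32). The other cells also held more S-labelled cells with E2. Clusters 1 and 3 had 419 and 93 of them among 4940 vehicle cells, and 545 and 222 among 3367 E2 cells. Cluster 7 had 3 and 2. These E2 ratios were not computed within phases, and the part of a shift of phases in them was not tested. Histone genes have near-identical copies, and the sources used here do not give how shared reads were counted. E2F1 was higher with E2 in both, with 113 and 239 CPM, a log2 ratio of 1.08 in cluster 7 and 0.63 elsewhere. S-phase genes as a list had an E2 median of 0.30 in cluster 7 and 0.43 in the other cells, with 2 of 13 higher and 1 lower, beside 4.17% and 11.3% of all panel genes.

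The repair signal of cluster 7 differed little between treatments. From vehicle to E2 the Uracil1 share differed by -1.26 percentage points (-2.08 to -0.44), while in the other cells it differed by 0.50 (0.29 to 0.71). For GU the difference was -0.01 points (-0.27 to 0.24) in cluster 7 and 1.27 (1.18 to 1.35) elsewhere. For Uracil2 it was -0.52 (-1.16 to 0.13) and for Uracil3 0.14 (-1.23 to 1.51) in cluster 7, both intervals including 0. The Abasic share was lower with E2 by 4.11 points in cluster 7 and by 5.91 points elsewhere. The distance between cluster 7 and the other cells in the 4 uracil hairpins together was thus 4.58 points with vehicle and 5.97 points with E2.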

How the data were processed

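MM134 cells with vehicle or E2 were read in 4 libraries, 1 per treatment and assay, so no p-value is given and cells are not replicates. The authors deposited natural log values (ln of 1 plus 10000 times the UMI count over the cell's total in a block) for 33538 all-gene, 1253 panel and 549 repair rows, and, per the file headers, UMI and row counts, the mitochondrial percent, cluster, phase and treatment of each cell. The submitters' processing notes name hg38, UMI-tools 0.5.3, Bowtie2 2.3.2, cutadapt 1.8.3, SAMtools and Cell Ranger 3.0.2. The sources used here do not give how clusters and phases were made, nor the source of the all-gene rows.

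All values came out as whole UMIs (within 1e-06; 100% of cells matched the deposited totals). UMIs were summed over cells and divided by the block total in each library. Ratios have exact 95% Clopper-Pearson intervals given the summed count of both groups, CPM exact Poisson and shares exact binomial intervals, which treat UMIs as independent. Differences between shares and between ratios have normal approximations. Genes needed 20 UMIs, observed or expected at the rate of the other cells, in cluster 7 of each library, positions 100, and E2 ratios 50 over both libraries; a gene that passes only through its high side is thus part of each count. A call was at least 1.5-fold with an interval excluding 1 (in both libraries and 1 direction for cluster 7 against other cells). Named genes were, per block, the 12 highest and 12 lowest with both intervals excluding 1, by the smaller ratio, the 8 highest and 8 lowest for E2, fixed repair genes and up to 4 members of each of 28 lists; histone genes and some list members were added after their values were seen. The members and lists were chosen with earlier results of these data known. No cell was left out and no doublet caller was run. Python 3.11.15, numpy 2.4.6, scipy 1.17.1 and pandas 2.3.3 were used. 1 gene of the lists is not reported here by name.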

Additional observations from a re-analysis of the deposited data

Results flagged for a closer look

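For 10 named genes and 2 repair measures, E2 against vehicle took opposite directions in cluster 7 and in the other cells, with counting intervals that exclude no difference on both sides. With 1 library per treatment the difference itself was not tested. These E2 ratios of genes were not computed within phases, and the other cells held a larger share of S-labelled cells with E2. For S-phase genes such as HIST1H3B and CCNE2, the part of a shift of phases was not tested. For CCNE2 the ratio of cluster 7 to the other cells was split by phase. In G1 cells its log2 was -1.46 (-2.20 to -0.81) with vehicle and -2.39 (-3.84 to -1.26) with E2. In G2M cells it was -0.63 (-0.93 to -0.34) and -1.95 (-2.73 to -1.27).

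Lower with E2 in cluster 7 and higher elsewhere were HIST1H3B (log2 -1.09 against 0.28), the S-phase cyclin CCNE2 (-1.32 against 0.33), the histone variant gene H2AFX (-0.51 against 0.06) and the nuclear RNA KCNQ1OT1 in the all-gene rows (-0.35 against 0.23). Higher with E2 in cluster 7 and lower elsewhere were VEGFA, an angiogenic factor (0.44 against -0.47), PDGFB (0.29 against -0.39), the epithelial factor ELF3 (0.28 against -0.27), ESR1 (0.18 against -0.02), the ribosomal gene RPL5 (0.06 against -0.18) and, in the all-gene rows, SEL1L of the degradation pathway of the endoplasmic reticulum (0.80 against -0.25). Of these, HIST1H3B, CCNE2 and SEL1L passed 1.5-fold in cluster 7. The differences for ESR1 (0.20, 0.08 to 0.32) and RPL5 (0.24, 0.19 to 0.29) were small, and the median panel ratio was -0.12 in cluster 7 and -0.09 elsewhere, so ESR1 lay above that median in both.

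The Uracil1 share differed by -1.26 percentage points in cluster 7 and 0.50 elsewhere, and the 4 uracil hairpins together by -0.34 and 1.05. Within phases the Uracil1 share went from 21.4% to 19.4% in G1 cells and from 20.2% to 19.5% in G2M cells of cluster 7. In the other cells it went from 27.0% to 27.1% in G1 cells and from 26.2% to 25.9% in G2M cells, so the opposite direction of the other cells did not hold in G2M cells.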

How the results depend on the processing

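No paired analysis was possible because each treatment and assay had 1 library. For the panel, 9 genes higher became 14 with a median-of-ratios size factor, 14 with no UMI minimum and 4 against clusters 3 and 4 alone, and 70 lower became 30 within G1 cells. For the all-gene rows, 65 higher became 38 with other cells weighted to the phases of cluster 7, 30 within G1 cells, 19 within G2M cells and 29 against clusters 3 and 4, and 60 lower became 120 with no minimum and 11 within G1 cells. RRM2, a lowest gene over all cells on 11 and 4 UMIs, changed sign within G1 cells. Its log2 ratios there were 1.35 (-1.01 to 3.05) with vehicle and 1.70 (-0.28 to 3.23) with E2. Both intervals include 0, so a reversal was not shown, and the cause was not tested.

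The Uracil1 difference with vehicle was -5.72 points at positions 45 and 46, -5.9 with phase weights, -5.62 within G1 cells, -6.05 within G2M cells and -3.64 against clusters 3 and 4. With E2 it was -6.43, -7.07, -7.67, -6.43 and -6.1 in the same order. For the 4 hairpins with vehicle it was -3.59 at positions 45 and 46, -4.15 with phase weights and -3.13 within G1 cells. With E2 it was -4.5, -4.86 and -4.5, then -6.22 as a median over thinned cells, -4.98 within G2M cells and -5.71 against clusters 3 and 4. All kept their direction.

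For E2 against vehicle in cluster 7, panel counts became 57 higher and 54 lower with the size factor and 66 higher with equal weight to each phase, where S rests on 3 and 2 cells. With G1 and G2M alone weighted equally they were 30 and 79. All-gene counts became 150 and 182 with a minimum of 20 UMIs and 159 higher with equal phases. Phase splits and the comparison with clusters 3 and 4 were chosen after seeing the data. The cluster's shares stayed within their intervals without shallow or very deep cells. The 205454 all-gene UMIs of cluster 7 with E2 limit what can be read for scarce transcripts such as UNG.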

Other observations

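Histone genes split in cluster 7, a pattern chosen after its values were seen. In the panel rows 7 of 9 measured histone genes were lower and 1 was higher, beside 9.45% and 1.21% of all panel genes. In the all-gene rows 6 of 9 were lower and 2 higher, beside 2.91% and 3.16% of all genes tested. HIST1H1B, a linker histone gene, had 29.9 CPM in cluster 7 against 154 CPM with vehicle and 29.2 against 224 CPM with E2. HIST1H4C, a histone H4 gene, had 566 against 1142 CPM and 448 against 1578 CPM. On the high side stood HIST1H2BD and HIST1H2AC, the latter at 136 against 67.8 CPM with vehicle and 122 against 61.9 CPM with E2. Copies of histone genes resemble each other, so single members are uncertain.

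Heat shock and endoplasmic reticulum genes showed no common direction. HSP90B1, a chaperone of the endoplasmic reticulum, had panel log2 ratios of 0.59 and 0.38, while CALR, another, had -0.25 and -0.40. In the all-gene rows HSPA8, a cytosolic chaperone, was lower at -0.80 and -0.83. It was the 1 called of 10 heat shock genes measured, beside 2.91% of all genes tested called lower and 3.16% higher. HSP90AA1, the inducible cytosolic HSP90, had 0.46 and 0.26. TOP1, topoisomerase I, had 10693 against 7826 CPM with vehicle and 9621 against 6578 CPM with E2 in the panel, log2 ratios of 0.45 and 0.55, and was not called.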
